A study of Mus musculus with 20 samples.

Results

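Uterine RNA was compared between 3 mice injected with HPTE 2 hr earlier and 3 vehicle mice, which used 6 of the 20 arrays of the series. All mice were C57bl6/J females of at least 10 weeks that had been ovariectomized and rested for 10 to 14 days, so that little ovarian hormone remained in either group. HPTE (750 µg) or sesame oil alone was given under the skin in 100 µl, and the RNA of 1 uterus was hybridized to 1 array. The vehicle uteri were labelled as taken 24 hr after the injection, so treatment and time since the injection cannot be told apart in any difference described here. A probe was kept when it was not a control and exceeded background clearly, by the scanner flag for well above background, on all 3 arrays of HPTE or of vehicle, which left 31731 of 41174 probes. Both groups met this for 29715 probes, only HPTE for 1082 and only vehicle for 934. The 1609 probes just outside the rule, well above background on 2 arrays of a group at most, had a median signal of 12.1 arbitrary units, against 19.9 for the 2016 that passed through 1 group and 542 for all probes kept.

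HPTE is the bis-hydroxyphenyl metabolite of the insecticide methoxychlor, and like BPA it binds estrogen receptor α (ERα). In the uterus, liganded ERα acts on chromatin directly at estrogen response elements and indirectly through other DNA-bound factors such as AP-1 and Sp1. The first wave of its transcripts encodes transcription factors and secreted signals, together with inhibitors of growth factor signaling, and precedes the rise in DNA synthesis of the epithelium.

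Signals are in arbitrary units after every array was scaled to a 75th percentile of 1679, and changes are differences of log2 signal, HPTE minus vehicle, with the standard error (SE) of the limma fit. The tissue is a mixture, so fewer cells of a type and less RNA per cell cannot be told apart. Arrays within a group correlated across probes with r of 0.991 to 0.993 (HPTE) and 0.984 to 0.993 (vehicle), against 0.930 to 0.960 between the groups. The median SD of a probe was 0.13 within HPTE and 0.15 within vehicle. Each of the 6 arrays had 75.2% to 80.9% of its probes well above background. Of 10 smooth muscle markers 3 were higher after HPTE and 1 lower, and Acta2 and Myh11 did not pass the test. Of 13 epithelial markers 1 was higher and 2 lower, and Krt8 and Cdh1 did not pass. Of 10 stromal markers 0 were higher and 8 lower. Over all genes 21.8% were higher and 27.4% lower. Vehicle replicate 1 stood apart for transcripts of maturing sperm cells, a cell type that a uterus should not hold. These were also measurable on the other vehicle arrays, and they are described with the decreases.

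HPTE arrays differed from vehicle for 15511 probes at a limma adjusted p under 0.05. Of the tested probes, 6479 (20.4%) were higher after HPTE and 9032 (28.5%) were lower. With a 2-fold change also required, 1563 probes were higher (4.93%) and 3188 lower (10.0%), and 58 and 235 passed at 16-fold. The 3 HPTE arrays lay wholly above or below the 3 vehicle arrays for 18696 probes, 58.9% of those tested. This was the case for 97.4% of the higher calls and 96.8% of the lower calls. One HPTE and one vehicle array shared a slide in each of 2 slides, and within the first of these pairs 15494 of the 15511 calls had the sign of the whole comparison and within the second 15444.

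Which direction prevailed depended on the scaling. With the 75th percentile 41.8% of the calls were higher, with quantile normalization 51.7% (8104 higher, 7581 lower), after normexp correction with quantile normalization 50.1% (7748 and 7716) and with no scaling 56.3% (6858 and 5319). Scaling to 8 spike-in control probes gave 57.4% (3770 and 2802) and moved the median of all probes from -0.09 to 0.16. Among the probes whose 3 vehicle arrays lay within 2-fold of each other, a restriction chosen after seeing the data, 6362 calls were higher and 7970 lower.

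**Figure D1:**
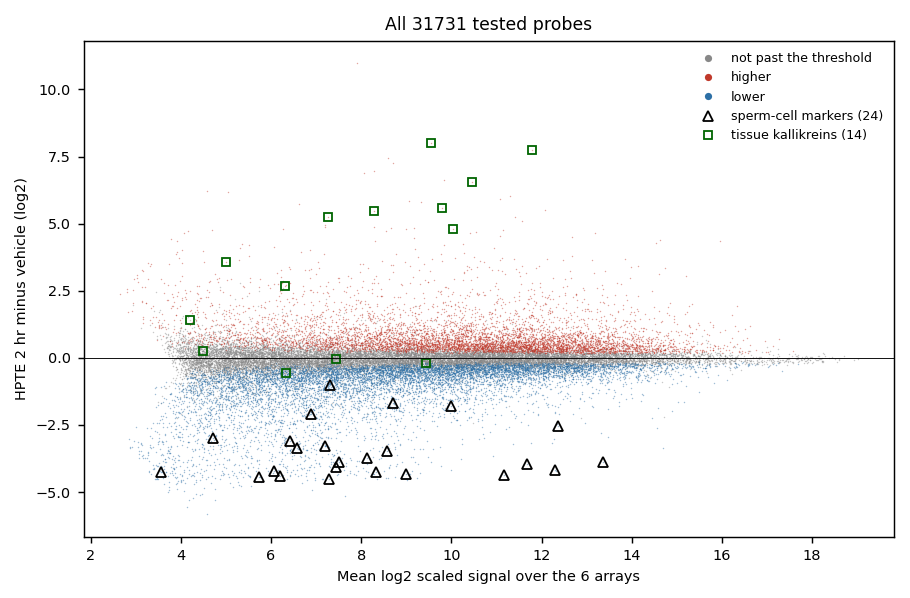
Each dot is 1 of the 31731 tested probes, with its mean log2 scaled signal over the 6 arrays on the x axis and its log2 difference, HPTE 2 hr minus vehicle, on the y axis. Red and blue dots passed the threshold and grey dots did not. Squares are the 14 tested kallikrein genes, 9 of which were higher, and triangles the 24 sperm-cell markers, all of which were lower. Dots include probes not well above background in 1 group, whose fitted difference is no bound.

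The largest increases were in tissue kallikreins and hair keratins. Tissue kallikreins are secreted serine proteases that release kinins and cleave growth factor precursors, and in the mouse they form a large cluster of near-identical genes. Klk1, the kallikrein of salivary gland, kidney and pancreas, had a signal of 11658, 12482 and 12090 on the HPTE arrays against 57.2, 41.3 and 43.7 on the vehicle arrays. Its difference on this probe was 8.01 (SE 1.20, limma adjusted p = 5.74e-05), a fold of 257. A second Klk1 probe gave a smaller difference of 4.85. Klk1b5 measured 51359, 55746 and 48314 after HPTE and 360, 182 and 210 in vehicle, a difference of 7.75 (SE 1.04). In both genes the groups lay far apart and the HPTE arrays were close to each other. Of 14 kallikreins tested, 9 were higher and 0 lower (median 4.18, against -0.08 over 1 probe for each of 15223 genes, of which 21.8% were higher and 27.4% lower). Klk1b3 rose by 6.55, Klk1b4 by 5.83, Klk1b24 by 5.57, Klk1b27 by 5.49, Klk1b21 by 5.24, Klk1b8 by 4.79 and Klk1b26 by 2.68. Klk1b11, not well above background in vehicle, was at least 8.10-fold higher, and with this bound in place of its fitted value the median was 3.90. After normexp correction with quantile normalization the median was 2.27. Klk1b4 is a further gene, named for the size of its change and outside the list. Not every close relative rose: Klk1b9 and Klk1b16 gave -0.57 and 1.43 and did not pass. The more distant relatives Klk8, Klk10 and Klk11 gave -0.21, -0.05 and 0.24 and did not pass either. Of the 12 tested markers of pancreas, which also expresses Klk1, 0 were called, and their summed signal was 1059 to 1712 after HPTE and 1529 to 1878 in vehicle.

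Which member of the cluster gave these signals is uncertain, most plainly for probes that are alike. The pair with the longest shared run is printed below. Runs shared with other kallikrein probes were at most 11 bases for Klk1b5 and 9 for Klk1b3, though Klk1b5 matched Klk1b16 at 42 of 50 aligned bases. Probes were compared with each other and not with transcripts. The Klk1 and Klk1b4 probes lie in the same gene cluster (chr7:40402636-40402791 and chr7:40384768-40384923, mm7) and are printed because they share a run of 28 bases, given in capitals. Over the 55 bases that can be aligned, 48 are identical.
Klk1: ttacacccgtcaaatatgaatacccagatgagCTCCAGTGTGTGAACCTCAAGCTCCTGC
Klk1b4: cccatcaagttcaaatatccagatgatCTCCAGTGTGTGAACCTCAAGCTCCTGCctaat

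Of the hair keratins, the structural proteins of hair and nail, 3 genes on one chromosome were far higher. Krt87 measured 5440, 4182 and 5864 after HPTE and 31.6, 26.7 and 30.3 in vehicle, a difference of 7.44 (SE 0.28, limma adjusted p = 2.68e-10). Krt86 measured 5639, 4191 and 5968 against 21.7, 34.8 and 50.3 (7.27, SE 0.38). Krt85 reached 11059, 8998 and 12512 after HPTE while none of the vehicle arrays had it well above background. Its signal was at least 783-fold higher than the lowest signal well above background on those arrays. After normexp correction with quantile normalization its log2 difference was 6.815, which is below this bound. Over 15 keratins tested, 5 were higher and 1 lower (median 0.05). Of other hair keratins, Krt35, Krt36 and Krt84 gave -0.23, -0.41 and 0.44 and did not pass, and Krt88 fell by 1.45. Epithelial Krt8, Krt18 and Krt19 gave -0.07, -0.33 and -0.21 and did not pass, Krt7 rose by 0.82, Krt79 by 2.82, and Krt20 fell by 1.17. The Krt86 and Krt87 probes (chr15:101463017-101463076 and chr15:101419766-101419825, mm7) are of 60 bases and overlap in 20, given in capitals, so the pair may read a common sequence.
Krt86: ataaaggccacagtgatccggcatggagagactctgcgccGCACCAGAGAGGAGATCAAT
Krt87: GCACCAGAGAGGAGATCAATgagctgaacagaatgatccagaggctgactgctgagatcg

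Among the other large increases were secreted factors and a synapse adaptor. Gdf15, a stress-induced member of the TGF-β family, measured 19145, 20057 and 21672 after HPTE and 266, 297 and 382 in vehicle (6.02, SE 0.42, limma adjusted p = 6.88e-08). Pgf, placental growth factor and a ligand of Flt1, measured 17827, 15114 and 17411 against 280, 241 and 317 (5.91, SE 0.64). Dok7, the activator of the muscle kinase MuSK, measured 5152, 5147 and 4194 against 100, 77.9 and 84.2 (5.79, SE 0.44). No vehicle array of these genes came near an HPTE array. Some genes were well above background after HPTE only. Trim15, a ubiquitin ligase of the tripartite motif family, was at least 20.4-fold higher, the proton channel Otop1 at least 15.03-fold, the actin-binding Synpo at least 13.1-fold, the bombesin-like peptide receptor Grpr at least 11.8-fold and the phosphate transporter Slc34a3 at least 9.68-fold. These bounds hold for the main processing only. Normexp correction with quantile normalization gave smaller log2 differences of 2.145 for Trim15, 1.97 for Otop1, 1.58 for Synpo, 1.505 for Grpr and 1.22 for Slc34a3.

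**Figure D2:**
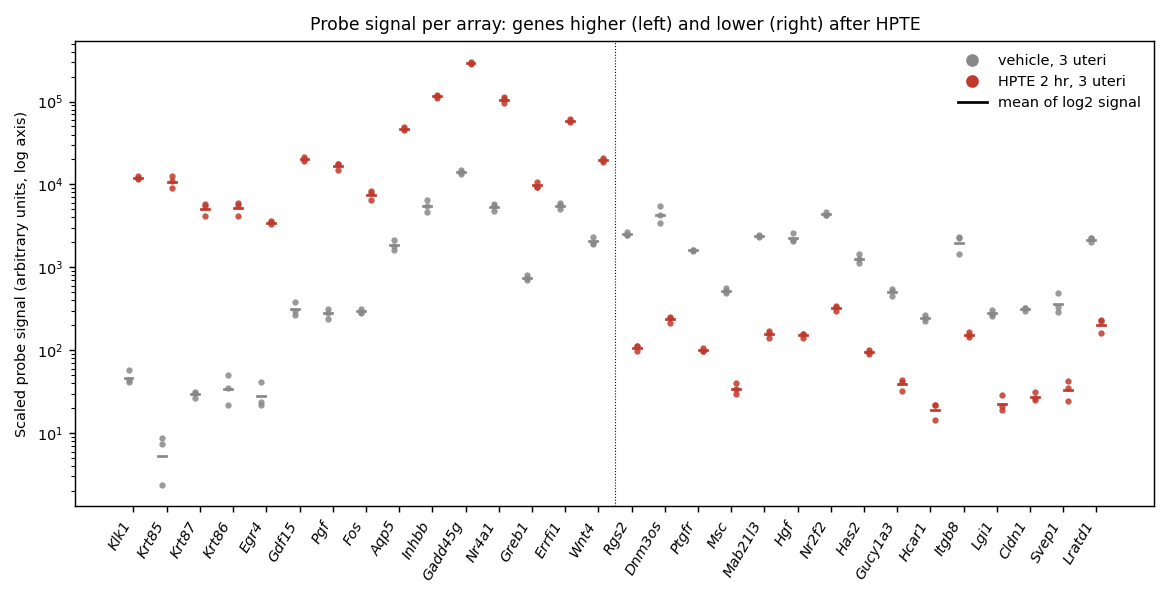
Scaled probe signal on a log axis (arbitrary units) for 15 genes higher and 15 genes lower after HPTE, 1 gene per position on the x axis. Points are single uteri (grey vehicle, red HPTE 2 hr, 3 each) and bars the mean of log2 signal. The groups do not overlap for any of the 30 genes, for instance 113510, 96190 and 107460 after HPTE against 5806, 4841 and 5514 for Nr4a1. Absence of overlap was a condition for choosing the 15 lower genes and several of the higher ones. The Krt85 vehicle points were not well above background.

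Early transcription factors rose together. AP-1 is a dimer of Fos, Jun and ATF family members, and 11 of its 12 listed genes were higher and 0 lower, with a median of 2.13. The higher share was 91.7%, beside 21.8% of all genes. Fos measured 8257, 6550 and 7836 after HPTE against 281, 288 and 317 in vehicle, a difference of 4.67 (SE 0.28, limma adjusted p = 2.05e-08). Atf3, a stress-induced partner, measured 12760, 12444 and 13735 against 821, 1222 and 1745 (3.43, SE 0.26). The Fos relatives Fosl1, Fosb and Fosl2 rose by 3.40, 3.12 and 2.21. Of the Jun proteins, Junb rose by 2.02, Jund by 1.91 and Jun by 1.20. The Jun-dimerizing repressor Jdp2 rose by 2.30 and the small Maf protein Maff by 2.06.

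Of 21 other early factors tested, 17 were higher and 2 lower (81.0% and 9.5%, beside 21.8% and 27.4% of all genes, median 1.64). Egr4, a zinc finger factor of the early growth response family, measured 3290, 3586 and 3505 after HPTE and 41.7, 21.9 and 23.6 in vehicle (6.96, SE 0.24, limma adjusted p = 1.4e-10). Its relatives Egr3, Egr1 and Egr2 rose by 4.84, 2.34 and 1.60. Nr4a1, an orphan nuclear receptor, measured 113510, 96190 and 107460 against 5806, 4841 and 5514 (4.30, SE 0.10, limma adjusted p = 1.8e-12), and Nr4a2 rose by 2.53. For both Egr4 and Nr4a1 the spread within a group was small beside the gap. Cebpb rose by 3.04, Ier2 by 2.96, Csrnp1 by 2.79, Ier3 by 2.29, Klf4 by 1.93 and Srf, the factor that binds the serum response element, by 1.64. Members of the Myc family differed: Mycn rose by 1.05, whereas Myc measured 4234, 5104 and 3814 against 4979, 4059 and 4115, a difference of 0.00 (SE 0.22, limma adjusted p = 0.99). Klf5 fell by 1.33.

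Inhibitors of MAP kinase and receptor signaling moved both ways, with 9 of 17 tested higher and 3 lower (median 0.51). These shares of 52.9% and 17.6% stand beside 21.8% and 27.4% of all genes. Errfi1, which binds and blocks the EGF receptor kinase, measured 58133, 56201 and 62219 after HPTE against 4988, 6027 and 5620 (3.41, SE 0.22). The MAP kinase phosphatases Dusp8, Dusp1 and Dusp2 rose by 3.18, 2.51 and 1.91, Spry4 by 2.83 and Rgs16 by 1.91. Spry1, another member of the Sprouty family, was instead lower, with 3100, 3016 and 2338 against 9835, 10073 and 9959 (-1.83, SE 0.29). Rgs2, which shortens Gq signaling, fell by 3.38 on its brighter probe.

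Promoters of these genes were searched for short motifs on both strands, over the 250 bases before and 50 bases after the start of each gene in RefSeq (GRCm38.p6). A promoter was at hand for 553 of the 756 genes at least 2-fold higher, 891 of 1213 at least 2-fold lower and 11605 of the 15223 tested. A gene with several promoters was counted once, if any of them held the motif. The cyclic AMP response element TGACGTCA was found for 32 of the higher genes (5.79%), 17 of the lower genes (1.91%) and 3.14% of all tested genes with a promoter. Counted by single promoter, an unlike unit, the share was 1.79% of all 32851 promoters available. The AP-1 motif TGANTCA was in 6.51%, 8.53%, 7.01% and 7.81% of the same sets, and the short receptor motif GGTCA in 46.1%, 46.8%, 43.1% and 40.5%. The last value of each is again by promoter. The lower set includes genes whose vehicle arrays spread widely. In the 486 lower genes with a promoter and vehicle arrays within 2-fold, the shares were 1.85% (cyclic AMP response element), 7.0% (AP-1) and 41.2% (GGTCA). A full estrogen response element, GGTCA and TGACC separated by 3 bases, was found for 1 of the higher and 1 of the lower genes. These shares describe the letters in this window only and were not tested. Windows around the cyclic AMP response element, with its letters in capitals, are shown for 4 of the genes described here (3 of them signaling inhibitors or kinases and 1 a hyaluronan synthase). They lie at chr17:17855224-17855311 (Has1, minus strand), chr4:150854979-150855066 (Errfi1, plus strand), chr17:26508568-26508655 (Dusp1, minus strand) and chr13:110394942-110395029 (Plk2, plus strand). Plk2, a polo-like kinase, rose by 2.24.
Has1: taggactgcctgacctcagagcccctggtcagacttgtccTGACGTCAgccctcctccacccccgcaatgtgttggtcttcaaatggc
Errfi1: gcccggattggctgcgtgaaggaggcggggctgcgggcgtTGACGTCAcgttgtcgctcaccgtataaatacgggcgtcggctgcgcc
Dusp1: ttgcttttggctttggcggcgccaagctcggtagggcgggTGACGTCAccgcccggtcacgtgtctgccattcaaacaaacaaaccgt
Plk2: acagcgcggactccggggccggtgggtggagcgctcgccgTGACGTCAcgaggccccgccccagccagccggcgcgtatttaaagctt

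Hyaluronan synthases changed in opposite directions. These enzymes extrude hyaluronan, the water-binding polymer of the swelling uterine stroma, and were picked out after their values were seen. Has1 measured 1603, 1372 and 2194 after HPTE against 54.9, 66.7 and 53.2 (4.87, SE 0.36, limma adjusted p = 9.62e-08). Has2 measured 96.0, 88.9 and 101 against 1114, 1459 and 1246 (-3.73, SE 0.36, limma adjusted p = 1.06e-06). Has3 measured 38.3, 36.5 and 33.8 against 101, 90.5 and 103 (-1.44, SE 0.13). The groups did not overlap for any of the 3 enzymes.

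Of 36 ligands tested, 14 were higher and 11 lower (38.9% and 30.6%, beside 21.8% and 27.4% of all genes, median 0.26). Inhbb, the βB subunit of activin and inhibin, measured 120270, 116980 and 109470 after HPTE against 6422, 5562 and 4713 (4.39, SE 0.28). Cyr61, a matrix-bound integrin ligand, measured 35529, 26791 and 31863 against 1076, 1377 and 1721 (4.51, SE 0.20). Il11, the cytokine needed for decidualization, rose by 2.77, the EGF receptor ligand Hbegf by 2.65 and the vasodilator Adm by 1.60. Lower ligands included stromal growth factors that act on epithelium: Fgf7 measured 55.0, 68.2 and 44.9 against 255, 248 and 221 (-2.12, SE 0.31), and Fgf10 fell by 1.13. Fgf18 fell by 2.08, Bmp2 by 1.80 and the EGF receptor ligand Btc by 1.39. Of 29 receptors tested, 4 were higher and 10 lower (median -0.11, which turned positive with spike-in scaling or no scaling), so 48.3% were called, beside 49.2% of all genes. The stem cell factor receptor Kit rose by 1.47 and Fgfr3 by 1.07, and Erbb3 fell by 0.96.

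Vascular regulators were mostly higher, with 14 of 24 tested above vehicle and 3 below (median 0.52). These shares of 58.3% and 12.5% stand beside 21.8% and 27.4% of all genes. Vegfa, the main inducer of vascular permeability, measured 38788, 33587 and 36078 after HPTE against 4964, 5920 and 5092 (2.77, SE 0.19, limma adjusted p = 6.65e-08). Ramp3, which turns the calcitonin receptor-like receptor into an adrenomedullin receptor, measured 57612, 48412 and 52151 against 3913, 4205 and 4207 (3.68, SE 0.19). The hypoxia-inducible factor Epas1 rose by 2.03 and the peptide Apln by 1.89, while its receptor Aplnr fell by 1.07. Of 10 endothelial markers 1 was higher and 1 lower.

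Of 24 transcripts known as estrogen targets of the uterus, 14 were higher, all at least 2-fold, and 4 lower (median 1.71). The shares were 58.3% and 16.7%, beside 21.8% and 27.4% of all genes. These targets are known from E2 studies in the same laboratory among others, so the list is not independent evidence of their direction. Aqp5, a water channel of epithelium, measured 48670, 46376 and 45763 after HPTE against 1597, 2162 and 1814 (4.67, SE 0.30), and Aqp8 rose by 3.89. Greb1, an ERα coactivator, measured 9240, 10697 and 9262 against 810, 752 and 697 (3.69, SE 0.17, limma adjusted p = 1.45e-09). The amino acid transporter Slc7a5 rose by 3.05, Aldh1a2, which makes retinoic acid, by 1.80 and creatine kinase Ckb by 1.61. Txnip, an inhibitor of thioredoxin and glucose uptake, was lower, with 10107, 7122 and 14785 against 47206, 41893 and 58049 (-2.25, SE 0.40). Ltf, which encodes lactoferrin, and Igf1 gave -0.54 (limma adjusted p = 0.343) and 0.43 (limma adjusted p = 0.0601).

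Steroid receptors and their coregulators were split, with 7 of 20 higher and 7 lower (median -0.02, positive with spike-in scaling or no scaling). Esr1 measured 16180, 21055 and 12300 after HPTE and 25111, 21486 and 17818 in vehicle, and these ranges overlapped (-0.40, SE 0.19, limma adjusted p = 0.101). Pgr, the progesterone receptor, measured 1191, 1215 and 1176 against 425, 489 and 448 (1.40, SE 0.09). Nrip1, which represses nuclear receptors, rose by 2.25. The membrane estrogen receptor Gper1 fell by 1.27.

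A set of 17 transcripts is of interest because they were also assayed by PCR elsewhere in this project. On the arrays 13 of the 17 were called, all higher, while 21.8% of all genes were higher and 27.4% lower. Most of these transcripts were already known from the same laboratory to respond to E2. Several are also in the list of estrogen targets above, so this count is not independent evidence of their direction. Besides those given above, Gadd45g, a growth arrest gene, measured 300740, 292420 and 280880 after HPTE against 14175, 14786 and 13426 (4.37, SE 0.34). Ppp2r2c rose by 3.66, the CDK inhibitor Cdkn1a by 3.58, the spindle checkpoint gene Mad2l1 by 3.39, Wnt4 by 3.25 and Stat5a by 2.27. Sox8 rose by 0.77 (SE 0.19, limma adjusted p = 0.0035), from 49.1, 58.2 and 49.0 to 84.7, 89.6 and 91.4. Axin1 rose by 0.45 (limma adjusted p = 0.00373), and this call was lost when only the 2 groups were fitted (0.0605) and with spike-in scaling (0.0814). Per1 gave 0.24 (limma adjusted p = 0.368), Mvp 0.01 (0.95), Tnxb 0.24 (0.217) and Gna12 -0.16 (0.136). Gna12 was called lower with quantile normalization (-0.26) and after normexp correction (-0.30).

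Decreases were more numerous and were read separately for probes on which the vehicle arrays lay close together. Of the 3188 probes at least 2-fold lower, 2183 (68.5%) had their 3 vehicle arrays within 2-fold, and on 801 (25.1%) vehicle replicate 1 was more than 2-fold above both others. Of the 602 probes at least 8-fold lower these were 114 (18.9%) and 466 (77.4%). Over all tested probes they were 92.7% and 2.94%. Among the increases they were 93.5% and 1.22% of the 1563 probes at least 2-fold higher, 86.5% and 3.42% of the 438 at least 4-fold higher and 77.6% and 5.17% of the 58 at least 16-fold higher. A high vehicle array enlarges a decrease and reduces an increase, so these shares depend in part on the direction selected.

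Sperm-cell transcripts were 7 of the 10 largest decreases named by size. All 24 listed markers of maturing sperm cells were lower by at least 2-fold (median -3.88, or -3.79 with 2 genes below background at their bound), and their summed signal was 240540, 80800 and 71647 on vehicle arrays 1 to 3 and 15177, 7667 and 6645 on HPTE arrays 1 to 3. Prm1, a protamine that packs sperm DNA, measured 89582, 28329 and 26603 in vehicle against 5296, 2237 and 1734. Pgk2, a glycolytic enzyme of sperm, measured 1609, 565 and 450 against 60.8, 26.6 and 21.9 (-4.50, SE 0.57). Vehicle replicate 1 was the highest of the 6 arrays for these genes, and every vehicle array lay above every HPTE array. Against the same vehicle arrays the median of the 24 markers was also lower after BPA (-2.37) and after E2 (-5.29), so the fall was not particular to HPTE. The other sperm-cell transcripts among the largest decreases were Spata16, Ccer1, Ropn1, Gk2, Cox8c and Cabs1, each expressed in testis, which fell by 4.47 to 4.55. Among genes below background after HPTE, Ccdc7b, Ubl4b, Speer3, Crisp2, Ccdc27 and Nt5c1b were at least 12.1-fold to 15.97-fold lower. After normexp correction with quantile normalization their log2 differences were -1.15 to -1.51, smaller falls than these bounds. Afp, a fetal plasma protein, measured 7001, 1802 and 303 in vehicle and 126, 57.0 and 46.1 after HPTE (-4.50, SE 0.92). Without vehicle replicate 1 the Afp value was -3.42 and without vehicle replicate 3 it was -5.68, and without vehicle replicate 1 Spata16 and Ccer1 gave -3.92 and -3.91. What part these cells had in the largest decreases beyond the markers was not tested.

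The decreases with close vehicle arrays are described by their 20 largest probes, a choice made after seeing the data. Each gene is represented by its probe that fell most, and other probes of the same gene can show a smaller fall. Rgs2 measured 112, 96.6 and 114 on its dimmer probe after HPTE and 2442, 2456 and 2637 in vehicle (-4.55, SE 0.44, limma adjusted p = 1.13e-06). Ptgfr, the receptor of prostaglandin F, measured 96.6, 96.6 and 108 against 1569, 1613 and 1609 (-3.99, SE 0.47). Hgf, the stromal ligand of Met, measured 158, 141 and 158 against 2572, 2120 and 2094 (-3.89, SE 0.34). For each of these genes all HPTE arrays lay more than 10-fold below the vehicle arrays.

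Transcription factors were among them. Nr2f2 (COUP-TFII), a stromal factor needed for implantation, measured 341, 295 and 329 after HPTE against 4286, 4672 and 4287 (-3.78, SE 0.47, limma adjusted p = 1.06e-05). Sox4 measured 1211, 1022 and 1286 against 10818, 11281 and 9495 (-3.17, SE 0.29), and Msc (musculin) 40.6, 29.3 and 33.7 against 491, 524 and 562 (-3.94, SE 0.51). Under the no-overlap rule of this selection, none of these HPTE values could reach the vehicle range. Dnm3os, the host transcript of a microRNA cluster, fell by 4.18. The vessel-tone genes Gucy1a3, a subunit of soluble guanylate cyclase, and Kcnj8, a subunit of an ATP-sensitive potassium channel, fell by 3.69 and 3.19. Adhesion genes were represented by the integrin Itgb8 (-3.68), the tight junction protein Cldn1 (-3.52), 1 dim probe of Svep1 (-3.45, against -0.35 on its brightest probe), the protocadherin Pcdh18 (-3.41) and Flrt3 (-3.32). The lactate receptor Hcar1 fell by 3.69, Lgi1 by 3.63, Lratd1 by 3.41 and Mab21l3 by 3.94. Has2 and 1 dim probe of Dcn (-5.16) completed the set.

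**Figure D3:**
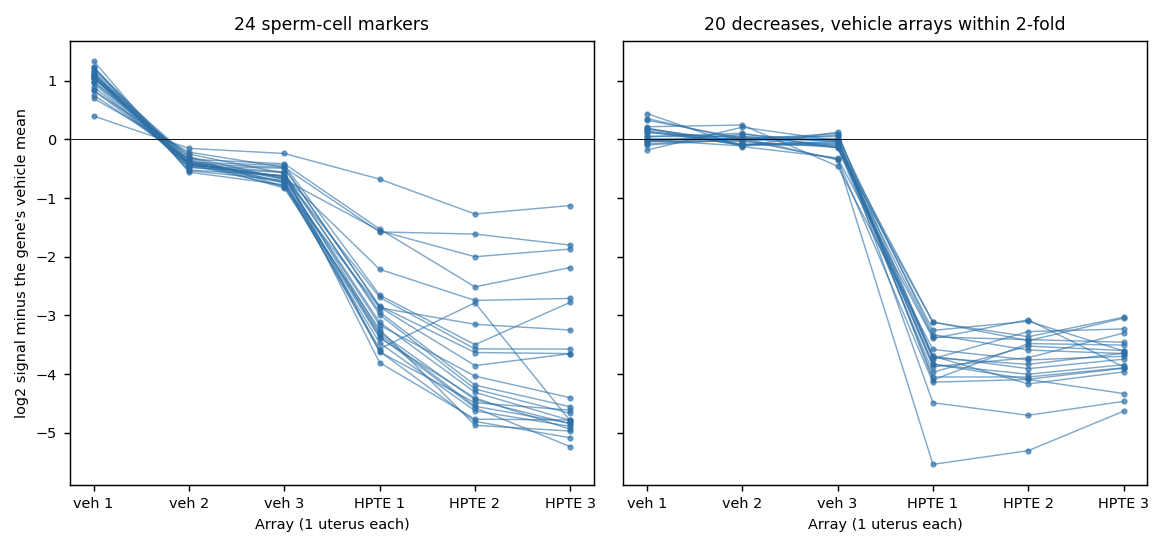
Log2 signal on each array minus the mean of the 3 vehicle arrays of that gene, for the 24 sperm-cell markers (left) and the 20 largest decreases with vehicle arrays within 2-fold (right). Each line is a gene joined across the 6 arrays, whose numbers carry no order. On the left vehicle array 1 lies above vehicle 2 and 3. On the right the vehicle arrays lie together and all HPTE arrays below them, as the selection of these probes required.

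Wnt genes were more often lower than higher, with 18 of 37 tested below vehicle and 9 above (median -0.40). These shares of 48.6% and 24.3% stand beside 27.4% lower and 21.8% higher of all genes. Wnt4, a ligand needed for decidualization, measured 20799, 18424 and 19754 after HPTE against 1926, 1977 and 2302, and Wnt7b rose by 2.41. Wnt7a, the ligand of the luminal epithelium, was lower, with 602, 521 and 797 against 2140, 2546 and 2919 (-1.998, SE 0.43, limma adjusted p = 0.0013). The receptor Fzd1 measured 1710, 1896 and 1655 against 15500, 13155 and 13871 (-3.01, SE 0.40), and Fzd7 and Fzd10 fell by 2.02 and 1.71. The groups did not overlap for any of these genes. Among secreted modulators, Rspo3, which amplifies Wnt signaling, fell by 2.61 and the antagonist Dkk2 by 1.60. The coreceptor Lrp5 rose by 1.60 and Axin2, a feedback inhibitor, by 0.95, whereas the inhibitor Nkd2 fell by 1.37.

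Hox and other homeobox genes, which set position along the reproductive tract, were lower in 21 of 29 tested and higher in 0 (median -0.73). The lower share was 72.4%, beside 27.4% of all genes. Hoxa10, needed for implantation, measured 5788, 5276 and 4601 after HPTE against 15908, 14574 and 13913 (-1.51, SE 0.30, limma adjusted p = 0.000634). Hoxa11 measured 9778, 13548 and 7932 against 29065, 22851 and 26648 (-1.36, SE 0.31). Hoxa9 fell by 2.09, Hoxb4 by 1.25 and Hoxb5 and Hoxc6 by 1.24 each. All HPTE arrays were below all vehicle arrays for Hoxa10 and Hoxa11. Stromal markers, 2 of which are Hox genes, moved the same way, with 8 of 10 lower and 0 higher (median -0.75). Their summed signal was 467610 to 485450 after HPTE and 620040 to 671950 in vehicle, and Vim and Pdgfra each fell by 0.49. The part of this shift in the lower Hox, Wnt and stromal growth factor signals was not tested. Among BMP and TGF-β regulators 7 of 24 were higher and 3 lower (41.7% called, beside 49.2% of all genes). Their median was -0.03, positive with spike-in scaling or no scaling. The Ski-like repressor Skil rose by 1.96, Id1 by 1.31 and Smad6 by 1.14, and the pseudoreceptor Bambi, Tgif1 and Id2 fell by 1.61, 1.52 and 1.49.

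Genes of protein synthesis, folding and breakdown were counted by list, to be read beside 21.8% higher and 27.4% lower over all genes. Of 30 ribosome biogenesis factors 22 were higher and 1 lower (median 0.64). Bysl, which assembles the small subunit, measured 6090, 5862 and 6514 after HPTE against 1992, 2059 and 2186 (1.57, SE 0.12, limma adjusted p = 1.85e-07), and the nucleolar GTPase Gnl3 rose by 1.47, Rrs1 by 1.35 and Nolc1 by 1.33. Of 25 chaperones and stress genes 16 were higher and 1 lower (median 0.52). The stress factor Atf4 measured 9240, 9137 and 10674 against 1671, 2232 and 2433 (2.21, SE 0.16). Hsph1 rose by 1.72, Dnajb1 by 1.21 and Hspa5, the chaperone of the endoplasmic reticulum, by 0.94. Of 20 aminoacyl-tRNA synthetases 10 were higher and 1 lower (median 0.25), and of 27 proteasome subunits 15 were higher and 0 lower (median 0.19), none by 2-fold. Of 18 amino acid transporters 5 were higher and 8 lower (median -0.32).

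Cell cycle genes were counted as inhibitors and by phase, to be read beside 21.8% higher and 27.4% lower over all genes. Of 16 inhibitors 8 were higher and 5 lower. The antiproliferative Tob1 rose by 2.57, Btg2 by 1.75, Gadd45a by 1.39 and Gadd45b by 1.38, and Btg1 and the CDK inhibitor Cdkn1b fell by 1.26 and 0.94. Of 25 G1 and S phase genes 4 were higher and 4 lower (median 0.18). Ccnd1, the G1 cyclin, measured 5731, 5713 and 5335 against 5591, 7216 and 6752, overlapping ranges with a difference of -0.21 (limma adjusted p = 0.314). The ribonucleotide reductase subunit Rrm2 rose by 1.17. Of 25 G2 and M phase genes 2 were higher, Mad2l1 among them, and 3 lower (median 0.14).

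Of 23 matrix proteases and inhibitors 7 were higher and 7 lower (30.4% each, beside 21.8% and 27.4% of all genes). Their median was -0.18, positive with spike-in scaling and both quantile settings. Adamts4, an aggrecanase, measured 5534, 4478 and 6581 after HPTE against 148, 183 and 199 (4.96, SE 0.50, limma adjusted p = 1.54e-06). Adamts1 rose by 2.00, while Adamts5 fell by 1.14. The urokinase gene Plau rose by 1.61 and its receptor gene Plaur by 2.66. Of 26 collagens and matrix genes 5 were higher, among them Lamb1 (1.36) and Col6a3 (0.99), and 4 lower. The share called was 34.6%, beside 49.2% of all genes (median -0.18, positive with spike-in scaling). Of 25 chemokines and inflammatory genes 5 were higher and 5 lower. Socs3, the feedback inhibitor of cytokine signaling, measured 86879, 85412 and 89059 against 9862, 7853 and 8380 (3.33, SE 0.29), whereas the interferon-induced Cxcl10 and Cxcl9 fell by 2.12 and 1.31.

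Xenobiotic metabolism genes were lower in 8 of 27 tested and higher in 3 (median -0.26), and the lower share of 29.6% stands beside 27.4% for all genes. Ahr, the dioxin receptor, measured 869, 956 and 952 after HPTE against 2651, 2842 and 2818 (-1.58, SE 0.16, limma adjusted p = 1.43e-06), and its repressor Ahrr fell by 1.03. Cyp1b1, which hydroxylates estrogens, measured 54.4, 20.9 and 53.2 against 159, 278 and 231 (-2.47, SE 0.64). Sult1e1, which sulfates and so inactivates estrogens, fell by 1.67. Cyp2s1 measured 10476, 10201 and 11151 against 2794, 2636 and 2468 (2.01, SE 0.17), and the glutathione transferases Gsta2 and Gsta1 rose by 2.00 and 1.83, whereas Gsta3 fell by 1.28.

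Clock genes are given because the groups differed in the time since injection. Of 16 tested, 6 were higher and 5 lower (37.5% and 31.2%, beside 21.8% and 27.4% of all genes). Nfil3 rose by 2.93, Per2 by 1.52 and Cry2 by 1.50, and Nr1d1 and Dbp fell by 1.51 and 0.95. Of 17 genes known to be induced by glucocorticoids 8 were higher and 3 lower (47.1% and 17.6%, median 0.33). The kinase Sgk1 rose by 2.14 and Pdk4 by 1.61, while Klf15 fell by 1.76. What part the hour of collection or the handling of the mice had in these values was not tested. Respiratory chain genes were called less often than all genes (24.0%, beside 49.2%), with 5 of 25 higher and 1 lower. Their median was 0.09, negative with both quantile settings. Forkhead factors gave 5 higher and 3 lower of 17 (47.1% called, median -0.05, positive under the other 4 scalings). In 10 of the 29 lists the share of genes called was below the 49.2% of all genes.

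**Figure D4:**
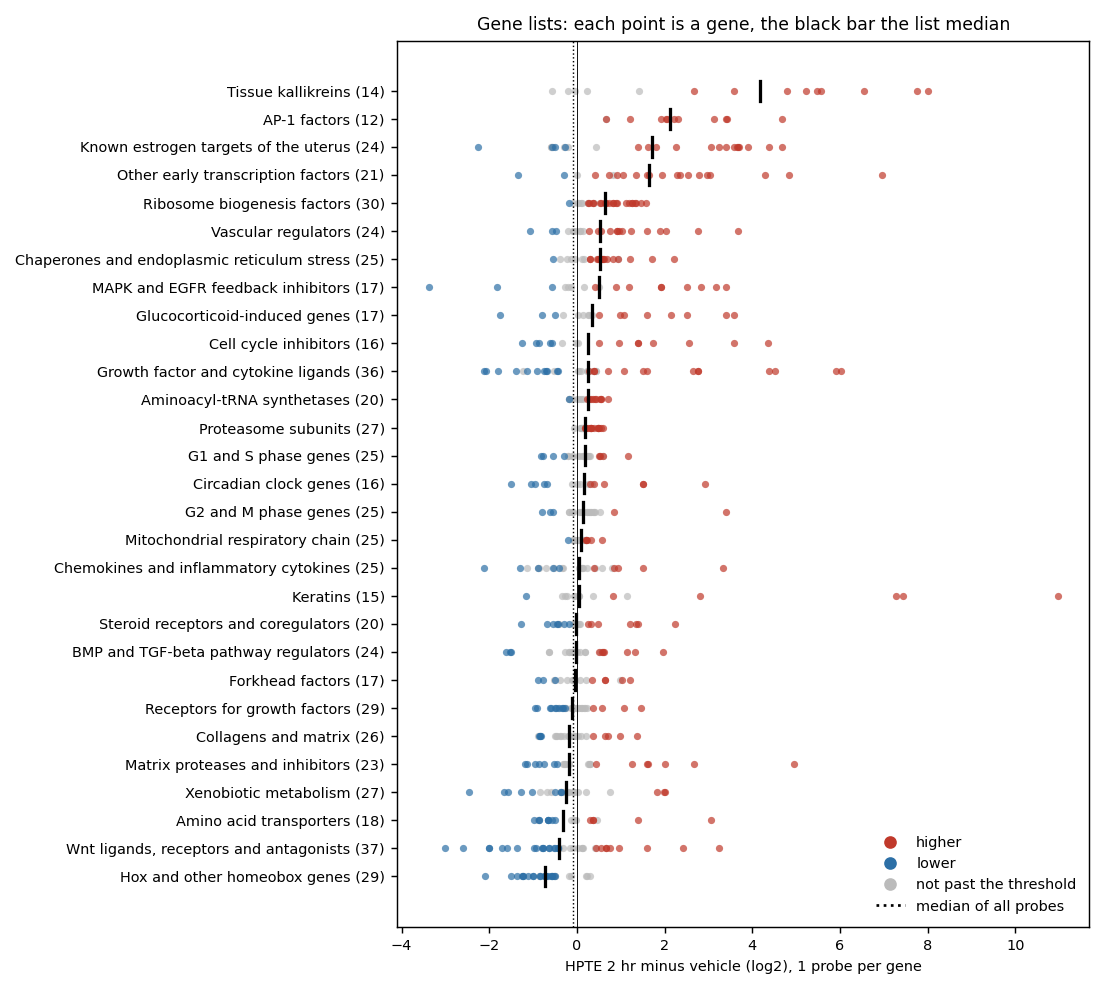
Log2 difference, HPTE 2 hr minus vehicle (x axis), of each tested gene of 29 lists, 1 probe per gene, with the number tested in brackets. Red and blue points passed the threshold, grey points did not, and the black bar is the list median. Medians run from 4.18 for kallikreins to -0.73 for homeobox genes, against a dotted line at -0.09 for all probes. The Krt85 point at 10.97 is a fitted value and no bound.

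Markers of other cell types were counted in the same way, to be read beside the 49.2% of all genes called. Of 13 epithelial markers 1 was higher and 2 lower, and their summed signal was 151340 to 163210 after HPTE and 162800 to 190940 in vehicle. Smooth muscle markers gave 3 higher and 1 lower of 10. Of 11 leukocyte markers, 8 adipocyte markers and 6 liver markers, 0 were called, and of 5 neutrophil and 5 erythroid markers 1 each was lower. Striated muscle gave 1 higher and 2 lower of 8, and ovary and oviduct 0 higher and 3 lower of 7 (42.9%, against 27.4% of all genes). The medians of the ovary and oviduct markers and of the erythroid markers were -0.62 and -0.58, beside -0.75 for stroma.

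HPTE was set against BPA at the same mass of 750 µg and the same time, with 3 uteri each, the 1 pair of compounds matched in both. Both compounds hold 2 phenol rings joined by a central carbon, which carries a trichloromethyl group in HPTE and a pair of methyl groups in BPA. They differed for 147 of the 31731 probes (0.463%), with 78 higher and 69 lower after HPTE. Edn2, a vasoconstrictor peptide, had the largest difference in favor of HPTE. It measured 339, 228 and 297 after HPTE, 80.6, 125 and 111 after BPA and 266, 291 and 296 in vehicle. HPTE exceeded BPA by 1.46 (95% interval 1.11 to 1.80, limma adjusted p = 0.00251), and the HPTE arrays lay around the vehicle level. Anks6, a ciliary protein, rose under both compounds, and HPTE exceeded BPA by 1.14 (0.85 to 1.42, limma adjusted p = 0.00251). Rflna, a regulator of actin bundling, exceeded BPA by 1.30 (0.79 to 1.81), the tubulin tyrosine ligase Ttl by 1.24 (0.89 to 1.59) and Sox8 by 1.14 (0.74 to 1.55). Each of these 5 calls was lost when only the 2 groups were fitted (limma adjusted p of 0.326 to 0.460) and with spike-in scaling (0.100 to 0.317), where 0 of all probes were called by limma (3135 and 1820 at an unadjusted p under 0.05).

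Of the 5 largest called differences the other way, the largest was in Saa3, an acute phase protein. It measured 114, 41.9 and 128 after HPTE, 2410, 5468 and 927 after BPA and 150, 255 and 452 in vehicle (HPTE minus BPA -4.76, 95% interval -6.70 to -2.82, limma adjusted p = 0.0389). Irg1, the itaconate enzyme of macrophages, gave an HPTE minus BPA value of -4.31 and the immunoglobulin gene Igh-6 one of -2.83. For Saa3 the HPTE arrays were below all vehicle arrays, and BPA arrays were above them. Of the listed chemokines and inflammatory genes 1 of 25 differed between the compounds and of the leukocyte markers 0 of 11. The median change of the leukocyte markers from vehicle was -0.31 after HPTE and 0.91 after BPA, and their part in the differences was not tested. The others of the 5 were the sperm-cell gene Ssty2 and 1 dim probe of Col3a1, neither well above background on any HPTE array, so no size is given for them.

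For the genes that HPTE raised most, a difference from BPA was not past the threshold, with intervals of unequal width. Nr4a1 differed by 0.07 (95% interval -0.15 to 0.29), Egr4 by 0.20 (-0.31 to 0.71), Krt87 by 0.18 (-0.41 to 0.77) and Fos by 0.39 (-0.20 to 0.99). Gdf15 differed by 1.41 (0.51 to 2.31, limma adjusted p = 0.127) and Klk1 by 1.11 (-1.45 to 3.67), so differences of over 2-fold are within the intervals of these genes. Of the large decreases, Rgs2 on its brighter probe fell further after HPTE than after BPA (-1.65, limma adjusted p = 0.0247). Its dimmer probe did not pass (-1.68, -2.62 to -0.75), nor did Hgf (-1.23, -1.95 to -0.52) and Has2 (-1.20, -1.96 to -0.43). For Ptgfr (-0.54, -1.55 to 0.46) and Hcar1 (-0.08, -1.13 to 0.97) the intervals held 0. BPA replicate 3 was weaker than the other BPA arrays. Over the 1563 probes at least 2-fold higher after HPTE, the median change from vehicle was 1.52, 1.50 and 1.51 on HPTE arrays 1 to 3 and 1.36, 1.55 and 0.99 on BPA arrays 1 to 3. Over the 2183 lower probes with close vehicle arrays it was -1.42, -1.52 and -1.51 for HPTE and -1.50, -1.54 and -0.96 for BPA. These probes were selected on the HPTE arrays, which favors HPTE. Without BPA replicate 3 the count of probes differing was 1228, without BPA replicate 2 642, without BPA replicate 1 41, and without HPTE replicate 1 or 2 it was 14. It also ranged from 0 to 656 under the other fits, filters and scalings.

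E2 at 250 ng and HPTE at 750 µg were given at different doses, so compound and dose cannot be told apart. Between these arrays 5419 probes (17.1%) passed the limma threshold, 2769 of them higher and 2650 lower after HPTE, and the genes below are given by their values side by side. The changes from vehicle were 6.96 after HPTE and 7.36 after E2 for Egr4, 4.67 and 5.38 for Fos, 7.44 and 8.08 for Krt87 and 4.30 and 4.44 for Nr4a1. They were 5.79 and 1.97 for Dok7, 4.21 and 0.61 for the sodium-proton exchanger Slc9a2 and 3.66 and 1.91 for Ppp2r2c. Otop1, Draxin and Trim15, which were named for size against E2 as well, were below background in vehicle, so their values are not set beside those of E2. Kallikreins cannot be ranked between the compounds, since Klk1 measured 632, 90143 and 2328 on the E2 arrays, a spread that also widened the SE of the HPTE change. The digestive enzymes and secretory proteins of the pancreas Reg1, Ctrc, Cela3b, Zg16 and Prss3 were high on E2 replicates 2 and 3, and none was called between HPTE and vehicle.

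**Figure D5:**
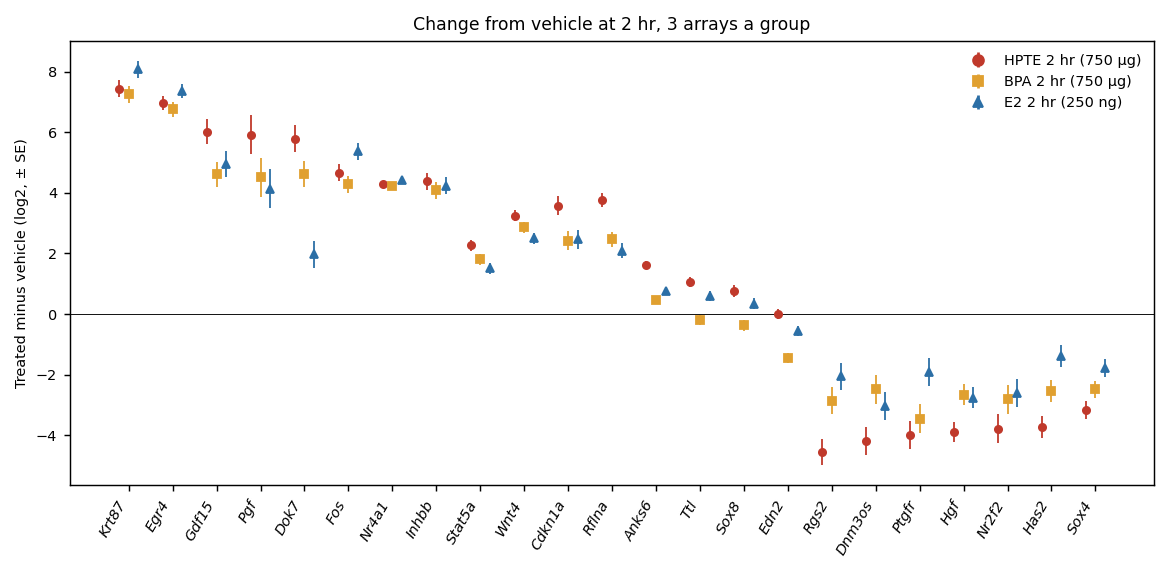
Log2 change from vehicle at 2 hr (y axis, bars are ± SE of the limma fit, 3 uteri a group) for 23 genes after HPTE (red circles), BPA (orange squares) and E2 (blue triangles). HPTE and BPA symbols lie close for Krt87, Egr4, Nr4a1 and Inhbb and apart for Edn2, at 0.00 and -1.45. The 3 compounds share the vehicle arrays, and the E2 dose differs.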

How the data were processed

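RNA of single uteri (500 ng) was labelled and hybridized alone to 1-color arrays. The deposited intensity values were extracted by the authors with Feature Extraction 9.5, which subtracted background within each array but set no common scale. The deposited flags (type other) mark spots as well above background, saturated, outlying or control. Of 45018 spots per array, 1639 were controls. Spots of a probe were averaged without outlying spots, and 33 kept probes lacked a value on at least 1 of the 6 arrays. Saturation touched 1 value. Of 18713 RefSeq-form accessions, 16628 matched the RefSeq gene table on GRCm38.p6, and other symbols are those of the array design. Probe positions are on mm7, and no exon annotation was used.

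Log2 processed intensity was centered on the 75th percentile of each array. A means model over the 7 groups and 20 arrays was fitted with limma 3.58.1 in R 4.3.3 (lmFit, eBayes, two-sided, prior degrees of freedom 1.98), with Benjamini-Hochberg adjusted p under 0.05 over all kept probes. The script was tested on simulated data. Each replicate was a separate uterus, and the number of arrays limits the precision. Bounds compare the brighter group with each dim array's lowest well-above-background signal (9.95 to 19.5 after scaling) or the probe's own signal, if higher. They hold for this processing only.

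Named genes were the 10 largest changes each way among called probes with all 6 arrays well above background and no overlap, the 6 largest bounds each way, up to 6 members of each list with any needed for its role, the 5 largest each way against BPA and E2, and the 17 PCR transcripts. One probe was used per gene. This was the brightest in lists and for the PCR transcripts, and the one with the largest change among genes named for size. The genes, lists and comparisons were chosen with earlier results of these data known. Has1, Has3, Plk2 and the decreases with close vehicle arrays were picked after their values were seen.

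Alternatives were array weights, no filter or other filters on dim probes, no scaling, quantile normalization, normexp correction (offset 50) with quantile normalization, spike-in scaling (8 probes), only the compared groups, slide as a fixed or random block, the replicate number as a block, stricter thresholds, and each array left out. Some members of the gene lists, counted with their list, are not reported here by name.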

Additional observations from a re-analysis of the deposited data

How the results depend on the processing

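The count for HPTE against vehicle (15511) stayed within 1.5 times under all alternatives except spike-in scaling (6572) and the stricter thresholds, which gave 4751 with a 2-fold change as well and 4267 with an unadjusted p under 0.001 and a 2-fold change. Leaving out single arrays gave 13817 to 14398. For the 69 results on named genes in this comparison, 1226 of 1230 recomputed values kept their direction and call, 2 lost the call (Axin1) and 2 gained it (Gna12). Most of these genes were chosen as the largest called changes on the same arrays, which favors keeping the call. Dcn and Rgs2 entered through more than 1 selection. Sizes moved more: 44 of the 69 were over 1.5-fold smaller after normexp correction with quantile normalization (Egr4 4.89, Krt87 5.46, Dcn -3.26, Spata16 -2.36), 12 with array weights and 9 without vehicle replicate 1 (all decreases). Labels number the replicates in both groups, and the correlation of same-numbered deviations was 0.16, 0.01 and 0.35, so the numbers were not taken to pair the uteri. With the replicate number as a block the counts were 15300 for HPTE against vehicle, 110 against BPA and 4984 against E2.

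The count against BPA (147) was 656 with array weights, 63 with no filter, 16 with no scaling, 93 with quantile normalization, 76 with slide as a fixed block and 57 with a 2-fold change as well. By limma it was 0 with only the compared groups and 0 with spike-in scaling (3135 and 1820 at an unadjusted p under 0.05). Leaving out single arrays gave 14 to 1228. The named differences from BPA lost their call in 65 of 178 recomputed values, and those from E2 in 18 of 177. The count against E2 (5419) was 11786 with no scaling, 3566 with only the compared groups, 3046 with slide as a fixed block, 847 with spike-in scaling, 1051 with a 2-fold change as well and 757 with the stricter p, and 3556 to 4707 without single arrays. It was lowest without E2 replicate 1 (3556) and HPTE replicate 2 (3568). The share of higher calls against E2 was 94.9% with no scaling and, after spike-in scaling, 81.1%, against 51.1%, and against BPA it was 72.0% and 72.3% with quantile normalization without and with normexp correction and 34.2% with slide as a fixed block, against 53.1%. The causes were not tested.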

Other observations

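Probes of the same gene did not always fall alike. For 6340 genes with several tested probes, 9102 pairs of the brightest and another probe differed by a median of 0.18 on the log2 scale, and 96 pairs by at least 2. In 47 genes (53 pairs) another probe was at least 4-fold lower after HPTE while the brightest was less than 2-fold lower, on probes with vehicle arrays within 2-fold. The dimmer probe lay upstream in 45 of these 53 pairs (84.9%) and in 74.1% of all pairs. Dcn, the proteoglycan decorin of stromal matrix, had a dim probe (chr10:97043200-97043259, mm7) that measured 25.7, 30.2 and 48.05 after HPTE against 1490, 1207 and 935 in vehicle (-5.16, SE 0.44, limma adjusted p = 3.8e-07). Its brightest probe, at 97080086 on the same chromosome, measured 292270, 292790 and 277560 against 346680, 316160 and 308000 (-0.17, limma adjusted p = 0.0861). For Col3a1, fibrillar collagen of the stroma, the probes from 5′ to 3′ gave -1.45, a value below background after HPTE (at least 7.68-fold lower) and -0.85. The matrix gene Svep1 had 2 probes at -3.39 and -3.45 and 2 at -0.35 and -0.31. This set was found after seeing the data, and no cause was tested.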
